A study of Mus musculus with 3 samples.

Results

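Itaconate is made from an intermediate of the TCA cycle, and the genes described here are *Acod1*, which encodes the enzyme that makes it, and 8 genes of TCA cycle enzymes or of their cytosolic counterparts, *Cs, Aco1, Idh1, Idh2, Idh3a, Ogdh, Fh1*, and *Mdh2*. These 9 genes were chosen by name, out of the 22238 genes listed in all 3 libraries. RNA-Seq was done on bone marrow monocytes (BM-Mono), spinal cord monocytes (SC-Mono), and antigen-presenting cells of monocyte origin from the spinal cord (SC-APC) of mice with EAE, a model of multiple sclerosis. All mice were female C57BL/6J (wild type by their titles), 10 to 12 weeks of age, immunized with MOG peptide in complete Freund's adjuvant, given 250 ng pertussis toxin, and sacrificed at the peak of disease, at days 14 to 15. No unimmunized mice are among the samples analysed here, and the bone marrow monocytes are also from diseased animals. The bone marrow monocytes were enriched and sorted as CD45+ CD11b+ Ly6C hi Ly6G- CD11c- cells, the spinal cord monocytes as CD45+ CD11b+ CD64+ Ly6C hi Ly6G- cells, and the APCs as the Ly6C low or negative cells of the same spinal cord gate. Cells of 13 mice from 2 experiments were pooled for the bone marrow library, and cells of 18 mice from 3 experiments for each spinal cord library. There is 1 library per population, so no difference has a replicate check and no p-value is given.

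The TCA cycle runs in mitochondria, where acetyl-CoA and oxaloacetate are joined to citrate, which is turned into isocitrate, 2-oxoglutarate, succinate, fumarate, malate, and again oxaloacetate. Aconitase forms isocitrate from citrate through cis-aconitate, and the ACOD1 protein removes a carboxyl group from cis-aconitate to give itaconate. Itaconate inhibits succinate dehydrogenase, and activated macrophages are known for inducing *Acod1* and for slowing the cycle at isocitrate dehydrogenase and succinate dehydrogenase.

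Promoter sequences are given for the 3 members called between BM-Mono and SC-Mono by the 2-fold rule on read numbers described below. They set the inducible *Acod1* beside the enzyme genes *Idh1* and *Fh1*. They are from RefSeq on GRCm38.p6, run 5′ to 3′ toward the start of transcription, and end before the annotated gene. The *Acod1* stretch is chr14:103046762-103046976 on the plus strand, the *Idh1* stretch chr1:65186501-65186729 on the minus strand, and the *Fh1* stretch chr1:175625636-175625885 on the minus strand. *Idh1* has 2 RefSeq starts, and the stretch is before the upstream start. Capitals mark the GC box GGGCGG and the motif CCAAT, on either strand.
Acod1: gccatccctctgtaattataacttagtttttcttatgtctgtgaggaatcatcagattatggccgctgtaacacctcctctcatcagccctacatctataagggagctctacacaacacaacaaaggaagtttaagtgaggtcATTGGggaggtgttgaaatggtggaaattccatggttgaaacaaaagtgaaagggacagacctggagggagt
Idh1: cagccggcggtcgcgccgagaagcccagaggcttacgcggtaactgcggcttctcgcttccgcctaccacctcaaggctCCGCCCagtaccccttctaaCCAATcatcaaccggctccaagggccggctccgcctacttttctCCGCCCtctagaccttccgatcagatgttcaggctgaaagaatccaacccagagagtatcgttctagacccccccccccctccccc
Fh1: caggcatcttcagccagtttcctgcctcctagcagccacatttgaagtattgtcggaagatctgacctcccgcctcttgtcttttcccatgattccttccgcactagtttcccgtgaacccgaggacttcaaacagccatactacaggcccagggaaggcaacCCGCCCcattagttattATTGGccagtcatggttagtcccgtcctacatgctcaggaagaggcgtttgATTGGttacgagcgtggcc

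RefSeq promoters were found for 8 of the 9 members, with 14 windows of 250 bases before a start of transcription. *Ogdh* has 6 of these windows, and some of them overlap. For the *Cs* window and some *Ogdh* windows, the bases after the start were not found in a GENCODE M21 transcript of the gene. The *Acod1* window had 44.4% GC and 2 CpG, against a median of 52.4% GC over 32851 promoters. The windows of the 7 enzyme genes had 50 to 74.0% GC and 9 to 35 CpG. GGGCGG was found in at least 1 window of 7 of these 7 genes, in 9 of 13 windows, and not in that of *Acod1*. It occurs in 32.7% of all promoters, and CCAAT in 33.8%. These shares are per promoter, so a gene with more windows has more places for a match. The *Acod1* window held CCAAT on the reverse strand from -107 to -103, counted from the RefSeq start, and TATAAA from -28 to -23, in the part not printed. TATAAA occurs in 12.4% of all promoters and was added to the search after the *Acod1* window had been read. In none of the 14 windows was a match found to the forms searched for interferon-stimulated response elements (GAAA, any 2 bases, and GAAA, in 2.98% of all promoters), STAT (TTCNNNGAA, 7.02%), NF-kappa B (GGGA, any base, and TTTCC, 0.356%), AP-1 (TGANTCA, 6.75%), or NRF1 (GCGCA, any base, and GCGC, 3.74%), on either strand. A match is only a string of letters in this window, and no factor binding was measured.

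The libraries held 33280643 reads for BM-Mono, 27283795 for SC-Mono, and 28209589 for SC-APC. Levels are TPM (Salmon's share of transcripts, corrected for effective length), rescaled to the same sum over the common genes in each library, with 95% Wilson intervals. Differences are log2 fold changes of read numbers scaled by median-of-ratios size factors, with 98% intervals, and a gene was called higher or lower where that interval lay beyond 2-fold and the TPM of either library was above 3. The intervals cover counting error only, and the difference between mice or sorts is not in them. They take reads as independent molecules, which PCR copies are not, so they can be too narrow even for counting error. The scales are not the same: over all genes tested the median log2 fold change from BM-Mono to SC-Mono was -0.15 on scaled reads and -0.37 on log2 of TPM plus 1, so that a fall looks larger in TPM. The APC values cover 22242 genes and the monocyte values 54432, so a different set of transcripts was used for the APC library, which the sources used here do not describe. A source label of the APC library names bone marrow, while its title and tissue label name the spinal cord, and the spinal cord was followed here. The 7 monocyte genes were over 3 reads in each library, and they moved in different ways. *Ly6c2* lay at 5205, 3602, and 1067 TPM in BM-Mono, SC-Mono, and SC-APC, and *Itgam* (CD11b) at 485, 533, and 510.0 TPM. In the same order, *Ccr2* lay at 1629, 299, and 139 TPM, *Plac8* at 2564, 3506, and 500, and *Cd44* at 374, 476, and 267. *Fcgr1* lay at 81.3, 274, and 138 TPM, and *Csf1r* at 374, 676, and 1134. The effective length of *Csf1r* was 2919 bases in SC-Mono and 2023 in SC-APC, and its scaled reads were 44313.5 and 49729.3. Between the monocytes 2 of the 7 were called higher and 1 lower, beside 13.8% and 10.7% of all genes. From SC-Mono to SC-APC 0 were called higher and 3 lower, beside 1.93% and 1.7%.

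*Acod1* was under the TPM threshold in BM-Mono and rose in both spinal cord libraries, 555-fold and 314-fold by scaled reads. It had 59 reads in BM-Mono, 23715 in SC-Mono, and 14939 in SC-APC. In TPM these are 1.17 (95% interval 0.906 to 1.51), 521 (515 to 528), and 302 (297 to 307), and the intervals do not overlap. The gene (ENSMUSG00000022126.6, on GRCm38 chr14:103046977-103056573) ranked 10254 of 22238 by TPM in BM-Mono, 335 in SC-Mono, and 473 in SC-APC. *Acod1* rose by 9.12 on the log2 scale from BM-Mono to SC-Mono (98% interval 8.70 to 9.57), or 555-fold (417 to 762). Of 10072 genes tested, 41 had a higher log2 fold change. In this comparison 13.8% of all genes were called higher, 10.7% were called lower, and 24.4% in either direction. From SC-Mono to SC-APC *Acod1* was not called: its log2 fold change was -0.82 (-0.86 to -0.79), or 1.77-fold lower, within the 2-fold bound. In that comparison 1.93% of 9734 genes were called higher and 1.7% lower, and 459 genes had a lower log2 fold change than *Acod1*. Against BM-Mono the APC level rose by 8.29 (7.88 to 8.75), 314-fold.

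**Figure D1:**
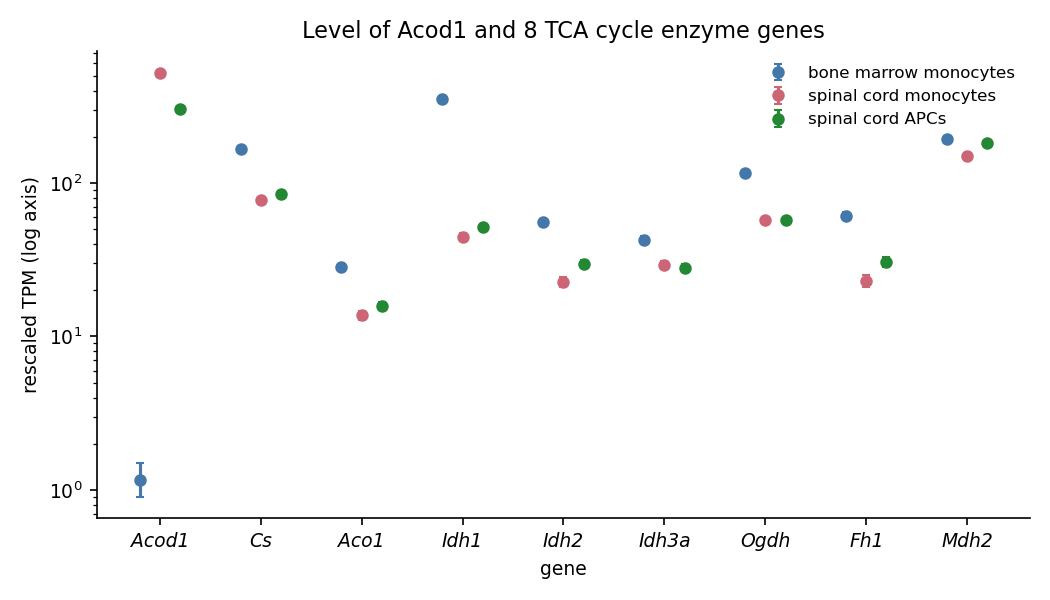
Level of the 9 genes in the 3 libraries, in rescaled TPM on a log axis, with 95% Wilson intervals (counting error only, 1 library per population). *Acod1* lies at 1.17 TPM in BM-Mono and at 521 and 302 TPM in the spinal cord libraries, whereas all 8 enzyme genes are highest in BM-Mono on this scale, *Mdh2* with an interval that overlaps that of SC-APC.

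The 8 enzyme genes had their highest TPM in BM-Mono, although for *Mdh2* the interval of SC-APC overlaps that of BM-Mono. The order of these libraries for *Mdh2* turned with the scaling: its log2 fold change from BM-Mono to SC-APC was -0.00 on scaled reads, 0.25 with reads per effective length, and 0.16 with deposited TPM plus 1. Between SC-Mono and SC-APC the TPM intervals overlap for *Idh3a* and *Ogdh*, and the other 6 are lowest in SC-Mono on this scale. On scaled reads the interval of *Mdh2* between these 2 libraries holds 0 (-0.04 to 0.12). The summed level of the 8 genes was 1014 TPM in BM-Mono, 418 in SC-Mono, and 481 in SC-APC. On scaled reads, all 8 were below 0 from BM-Mono to SC-Mono, with a median log2 fold change of -0.79 beside -0.15 over all genes tested, and 2 of the 8, *Idh1* and *Fh1*, were called lower. *Mdh2*, at -0.05, lay above that median of all genes, and *Idh3a* lay 0.14 under it. With *Acod1*, 3 of the 9 members were called, beside 24.4% of all genes tested.

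Citrate synthase (*Cs*), which makes citrate at the entry of the cycle, had 9418 reads in BM-Mono, 3974 in SC-Mono, and 4756 in SC-APC. These are 165 TPM (162 to 169), 77.4 (75.0 to 79.8), and 85.2 (82.9 to 87.7). The estimates for *Cs* were not whole numbers of reads in the monocyte libraries, as where reads are shared between genes. The spinal cord libraries are both below the bone marrow library and differ little from each other. The log2 fold change was -0.76 (-0.83 to -0.70) from BM-Mono to SC-Mono and 0.10 (0.03 to 0.17) from there to SC-APC, and neither was called. *Aco1*, the cytosolic aconitase that also acts as an iron regulatory protein, was the least abundant of the 8 enzymes, with 2135, 934, and 1175 reads and 28.3, 13.7, and 15.7 TPM in the same order. Its log2 fold changes were -0.71 (-0.84 to -0.58) and 0.17 (0.03 to 0.32), not called.

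Of the isocitrate dehydrogenases, *Idh1* fell and *Idh2* and *Idh3a* were not called. *Idh1*, the NADP-dependent enzyme of the cytosol and peroxisomes, had 15392 reads in BM-Mono, 1737 in SC-Mono, and 2203 in SC-APC. In TPM it fell from 353 (347 to 358), the highest of the 9 members there, to 44.7 (42.7 to 46.9), with 52.0 (49.9 to 54.2) in SC-APC. The gene spans chr1:65158616-65186500. The bone marrow value stands apart, and the spinal cord values are close together. *Idh1* fell by 2.67 on the log2 scale from BM-Mono to SC-Mono (98% interval -2.75 to -2.58), a 6.34-fold lower number of scaled reads (5.98 to 6.73), and 275 of 10072 genes had a lower log2 fold change. Between the spinal cord libraries it was 0.19 (0.08 to 0.29) and not called. *Idh2*, the NADP-dependent enzyme of mitochondria, had 1715, 645, and 922 reads and lay at 55.3, 22.7, and 29.6 TPM. Its log2 fold change was -0.93 from BM-Mono to SC-Mono, with an interval of -1.08 to -0.77 that holds the 2-fold bound, so it was not called. *Idh3a*, the catalytic subunit of the NAD-dependent enzyme that carries the cycle itself, had 1683, 991, and 1045 reads, and 42.8, 29.1, and 27.8 TPM. Its log2 fold changes were -0.28 (-0.42 to -0.15) and -0.08 (-0.23 to 0.07). The regulatory subunits *Idh3b* and *Idh3g* lay at 83.8 and 146 TPM in BM-Mono and at 72.3 and 73.4 TPM in SC-Mono, and neither was called.

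The ratio of *Idh1* to the other isocitrate dehydrogenases changed between the bone marrow and the spinal cord. The TPM of *Idh1* was 6.38 times that of *Idh2* in BM-Mono (95% interval 6.07 to 6.71), 1.97 times in SC-Mono (1.80 to 2.16), and 1.76 times in SC-APC (1.63 to 1.90). It was 8.24 times that of *Idh3a* in BM-Mono, 1.54 times in SC-Mono, and 1.87 times in SC-APC. *Idh1* made up 34.8% of the summed TPM of the 8 enzymes in BM-Mono, 10.7% in SC-Mono, and 10.8% in SC-APC.

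**Figure D2:**
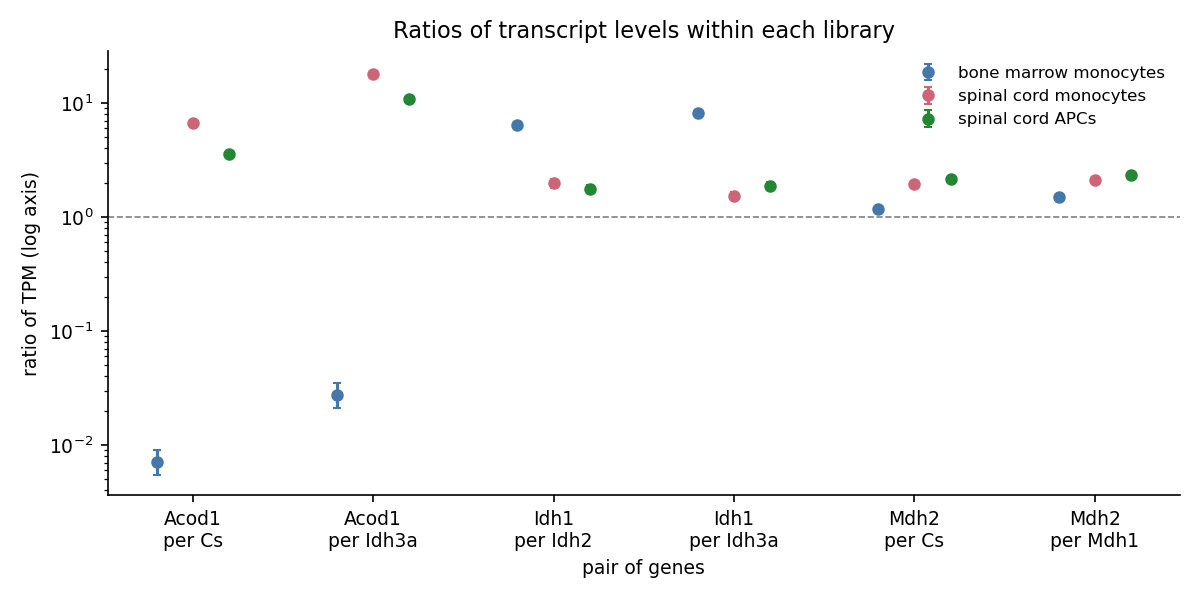
Ratio of the TPM of pairs of genes within each library, on a log axis, with 95% intervals (counting error only) that are mostly smaller than the points. The ratios of *Acod1* to *Cs* and *Idh3a* are below 1 in BM-Mono and above 1 in both spinal cord libraries, and those of *Idh1* to *Idh2* and *Idh3a* are highest in BM-Mono.

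*Ogdh*, the first subunit of the 2-oxoglutarate dehydrogenase complex, had 9225 reads in BM-Mono, 3772 in SC-Mono, and 4557 in SC-APC, or 116, 57.5, and 57.5 TPM. Its log2 fold changes were -0.81 (-0.87 to -0.74) and 0.12 (0.04 to 0.19), and neither was called. Its effective length was 0.908 times as long in SC-Mono as in BM-Mono. The second subunit, *Dlst*, lay at 112, 118, and 67.4 TPM, so the ratio of *Ogdh* to *Dlst* was 1.04, 0.488, and 0.853. The effective length of *Dlst* was 2196 bases in BM-Mono, 1686 in SC-Mono, and 2410 in SC-APC, and its part in the ratio was not tested.

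*Fh1*, the fumarase that turns fumarate into malate, had 1727 reads in BM-Mono, 538 in SC-Mono, and 710 in SC-APC. Its level was 61.3 TPM (58.5 to 64.3), 23.0 (21.1 to 25), and 30.7 (28.6 to 33.1), lowest in SC-Mono. The gene spans chr1:175600374-175625635. *Fh1* fell by 1.20 on the log2 scale from BM-Mono to SC-Mono (98% interval -1.37 to -1.04), or 2.30-fold, just past the bound of the call. Against BM-Mono the APC value was -0.96 (-1.11 to -0.81) and not called. The effective length of *Fh1* was 0.915 times as long in SC-Mono as in BM-Mono, and 0.841 times as long in SC-APC as in BM-Mono. *Mdh2*, the mitochondrial malate dehydrogenase that closes the cycle, had 4563, 3161, and 3630 reads and 192 TPM (187 to 198), 150 (144 to 155), and 182 (176 to 188). Its log2 fold change was -0.05 (-0.13 to 0.03) and then 0.04 (-0.04 to 0.12). *Mdh2* was the second most abundant of the 8 enzymes in BM-Mono and the most abundant in the spinal cord, with 19.0, 35.8, and 37.9% of their summed TPM. The ratio of *Mdh2* to *Cs* was 1.16, 1.93, and 2.13. Its last step up is not seen on scaled reads, where the log2 fold change from SC-Mono to SC-APC was 0.04 for *Mdh2* and 0.10 for *Cs*. The effective length of *Mdh2* was 1111 bases in BM-Mono, 1090 in SC-Mono, and 957 in SC-APC, and its part in the ratios was not tested. The cytosolic malate dehydrogenase *Mdh1* lay at 129, 70.5, and 77.4 TPM, and the ratio of *Mdh2* to *Mdh1* was 1.49, 2.12, and 2.35.

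**Figure D3:**
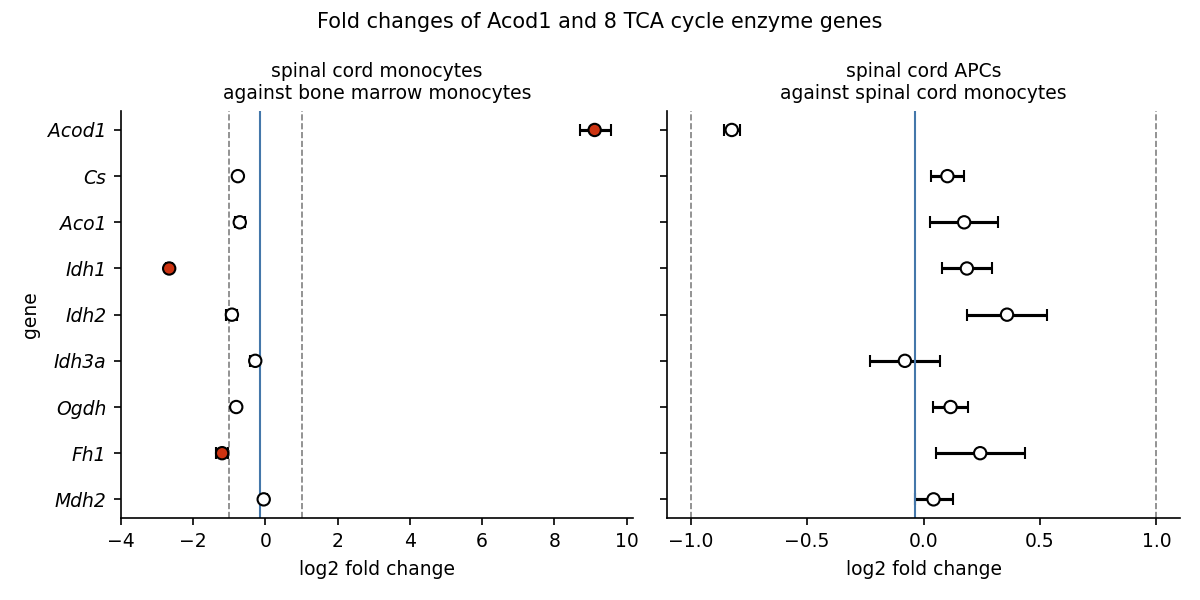
Log2 fold change of the 9 genes between SC-Mono and BM-Mono (left) and between SC-APC and SC-Mono (right; the axes have different ranges), with 98% intervals for counting error. Dashed lines mark the 2-fold bound, the blue line is the median of all genes tested, and filled points are called: *Acod1* at 9.12, *Idh1* at -2.67, and *Fh1* at -1.20 on the left, and none on the right.

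From SC-Mono to SC-APC, 0 of the 9 members were called, beside 3.63% of all genes in either direction. At this percentage a count of 0 among 9 genes is near the background. The log2 fold changes of the 8 enzymes lay between -0.08 (*Idh3a*) and 0.36 (*Idh2*), 7 of them above 0, with a median of 0.15 beside -0.04 over all genes. The intervals of *Idh3a* and *Mdh2* hold 0. *Acod1* was the member farthest from 0. Against BM-Mono, 1 member was called higher and 1 lower in SC-APC, *Acod1* and *Idh1* (-2.48, -2.56 to -2.40), beside 14% and 11.8% of 10190 genes, and 25.8% in either direction. That comparison uses libraries of both others and adds no independent value.

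The level of *Acod1* relative to the cycle was far apart in the 3 libraries. Its TPM was 0.115% of the summed TPM of the 8 enzymes in BM-Mono, 125% in SC-Mono, and 62.8% in SC-APC. Relative to *Cs*, the TPM of *Acod1* was 141 times lower in BM-Mono, 6.74 times higher in SC-Mono (95% interval 6.52 to 6.97), and 3.54 times higher in SC-APC (3.43 to 3.66). Relative to *Idh3a* it was 36.6 times lower, 17.9 times higher, and 10.9 times higher. These are ratios of transcript levels, and neither enzyme activity nor itaconate was measured.

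Of 15 further TCA cycle genes, 13 were tested and 0 were called in any of the 3 comparisons. Of all genes, 24.4% were called from BM-Mono to SC-Mono, 3.63% from SC-Mono to SC-APC, and 25.8% from BM-Mono to SC-APC. *Ogdhl* had at most 4 reads and *Csl*, a copy of *Cs*, had none. Their median log2 fold change was -0.18 from BM-Mono to SC-Mono, close to -0.15 over all genes, and 0.14 from there to SC-APC. The succinate dehydrogenase subunits *Sdhb* and *Sdhd*, the most abundant of them, lay at 158 and 160 TPM in BM-Mono, 119 and 124 in SC-Mono, and 93.9 and 106 in SC-APC, and their log2 fold changes between the monocytes were -0.10 and -0.06. The largest differences from BM-Mono to SC-Mono were those of the succinyl-CoA ligase subunit *Sucla2* (-0.72), *Idh3g* (-0.70), *Mdh1* (-0.66), and *Sdha* (-0.59), none of them called. Over all 23 genes of the cycle or of cytosolic counterparts, without *Acod1*, 21 were tested. From BM-Mono to SC-Mono their median was -0.44, and 2 were called lower, beside 10.7% of all genes. These are *Fh1* and *Idh1*, the latter of the cytosol and peroxisomes.

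Of 13 genes that feed pyruvate into the cycle, 11 were tested. From BM-Mono to SC-Mono 1 was called, beside 24.4% of all genes in either direction. From SC-Mono to SC-APC 0 were called, beside 3.63%, and from BM-Mono to SC-APC 2, beside 25.8%. Pyruvate dehydrogenase kinase *Pdk1*, which inhibits pyruvate dehydrogenase, lay at 11.1 TPM in BM-Mono, 46.7 in SC-Mono, and 25.8 in SC-APC, and rose by 2.39 (2.23 to 2.55) between the monocytes. Between the spinal cord libraries its log2 fold change on reads was 0.16 although its TPM was lower, and its effective length was 2356 bases in SC-Mono and 4935 in SC-APC. The pyruvate carrier *Mpc1* and the dehydrogenase subunit *Pdhb* were not called, at 0.05 and 0.10 between the monocytes. *Mpc2* lay at 91.8, 47.2, and 26.9 TPM and was called lower only between BM-Mono and SC-APC (-1.39, -1.58 to -1.21). The median of the 11 genes was -0.32 and then -0.01.

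Of 14 genes of citrate export and of the routes that fill the cycle, 10 were tested, with a median of -0.40 from BM-Mono to SC-Mono. There 1 was called higher and 3 lower, beside 13.8% and 10.7% of all genes. The cytosolic aspartate aminotransferase *Got1* rose by 3.69 (3.52 to 3.87), from 11.0 TPM in BM-Mono to 131 in SC-Mono, with 119 in SC-APC. The mitochondrial malic enzyme *Me2* fell by 2.37, from 135 to 22.4 TPM, with 17.5 in SC-APC. Glutamate dehydrogenase *Glud1* fell by 1.49, from 622 to 177 TPM, with 94.8 in SC-APC, and the aspartate-glutamate carrier *Slc25a13* fell by 1.35, from 16.4 to 6.80 TPM. The effective length of *Glud1* was 2069 bases in SC-Mono and 3068 in SC-APC, and its scaled reads were 8240 and 6302. ATP citrate lyase *Acly*, which splits exported citrate, was not called, at 135, 165, and 104 TPM. Between the spinal cord libraries 0 of the 10 were called, beside 3.63% of all genes, with a median of -0.05.

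Among 5 genes that handle itaconate or 2-hydroxyglutarate, 3 were tested and 0 were called in any comparison. The shares of all genes called were 24.4%, 3.63%, and 25.8% in the 3 comparisons. *Clybl*, which acts on citramalyl-CoA in the breakdown of itaconate, lay at 8.28, 10.9, and 15.9 TPM, and its log2 fold changes were 0.71 and 0.53. *Suclg2*, which is also counted among the TCA cycle genes, lay at 12.4, 8.64, and 12.1 TPM. *Oxgr1*, a receptor that itaconate can bind, had no reads in any library, which allows up to 3 reads in each.

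**Figure D4:**
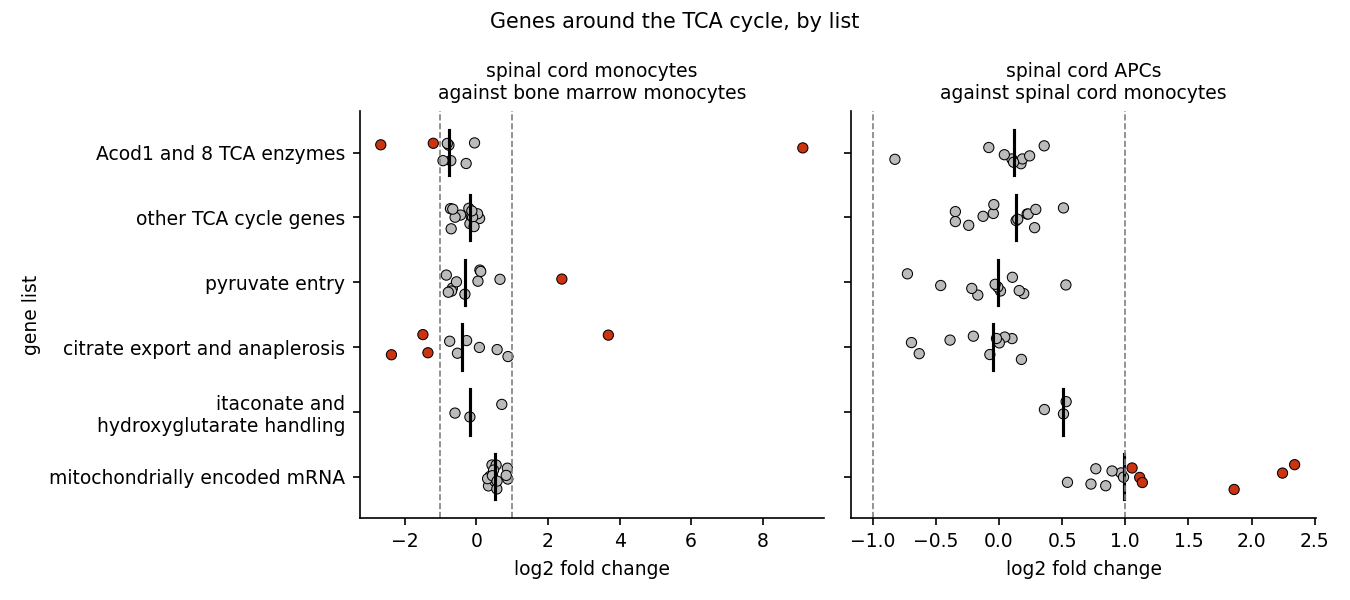
Log2 fold change of each tested gene of 6 lists between SC-Mono and BM-Mono (left) and between SC-APC and SC-Mono (right; the axes have different ranges). Points are genes, red if called, black bars are list medians, and dashed lines mark the 2-fold bound. The other TCA cycle genes have no red point, and the mitochondrially encoded genes have 6 on the right.

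By the pair of log2 fold changes from BM-Mono to SC-Mono and from there to SC-APC, the genes most like *Acod1* among 1985 called genes over 3 TPM in both spinal cord libraries were *Ackr1, Cldn5, Sdc4, Sphk1*, and *Slco1a4*, with Euclidean distances of 0.219 to 0.448. The comparison rests on 3 libraries. *Sdc4*, which encodes a syndecan of the cell surface, lay at 0.340, 201, and 119 TPM. *Sphk1*, a sphingosine kinase, lay at 0.0134, 17.8, and 11.8 TPM. *Ackr1*, *Cldn5*, and *Slco1a4* had no read in BM-Mono and *Sphk1* had 1, so the log2 fold changes of these genes depend on the read that is added. *Cldn5* encodes a tight junction protein of endothelial cells and was also among the endothelial markers.

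Markers of other cells that a sorted library could hold moved too. In bulk RNA, fewer cells that express a gene and less RNA per cell cannot be told apart. The 9 neutrophil genes, all over 3 reads in each library, summed to 1239 TPM in BM-Mono, 192 in SC-Mono, and 414 in SC-APC. *Mmp8* alone made up 707, 119, and 137 TPM of these sums. From BM-Mono to SC-Mono, 6 of 8 tested neutrophil genes were called lower and 2 higher, beside 10.7% and 13.8% of all genes. Those higher were *Cxcr2*, at 2.56, 9.10, and 6.75 TPM, which is the order of *Acod1*, and *Retnlg*, at 1.77, 16.7, and 57.9 TPM. *Ly6g*, the marker of the gate, was at 1.64 to 2.57 TPM. The 4 endothelial genes summed to 7.44, 59.4, and 35.9 TPM, which is the order of *Acod1*, with *Cldn5* and *Tek* at 0 in BM-Mono. The 6 microglia genes summed to 12.8, 86.7, and 226 TPM, highest in SC-APC where *Acod1* was lower than in SC-Mono, with *Sall1* and *Slc2a5* at 0 in BM-Mono. T cell genes summed to 0.53, 32.5, and 46.0 TPM. Erythroid genes summed to 0.32, 69.3, and 22.6 TPM, which is also the order of *Acod1*. B cell genes summed to 8.69, 3.52, and 3.77 TPM, and astrocyte genes to 2.31, 9.68, and 12.3. The oligodendrocyte genes summed to 73.1, 48.1, and 45.8 TPM, mostly *Mbp* in each library. The conventional dendritic cell genes summed to 40.7, 20.9, and 27.0 TPM, mostly *Flt3* in BM-Mono only. The most abundant of them was *Batf3* in SC-Mono (11.7 TPM) and *Clec9a* in SC-APC (7.40 TPM). All of them but *Flt3* were higher in both spinal cord libraries than in BM-Mono. *Flt3* went from 37.8 TPM in BM-Mono to 3.65 in SC-Mono, and *Mbp* from 72.7 to 35.7. In each of these lists 3 genes were tested between the monocytes, of which 1 was called lower, *Flt3* or *Mbp*, and 2 higher. Neuron genes were at 0, 0.60, and 0.58 TPM. The part of such cells in the levels of the 9 genes was not tested.

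Genes of cell division, like *Idh1* and *Fh1*, were lower in SC-Mono. Of 15 such genes, 14 were called lower from BM-Mono to SC-Mono, beside 10.7% of all genes. The median log2 fold change of the 15 was -3.22, and *Mki67* went from 92.9 to 8.59 TPM, with 12.6 in SC-APC. The summed level of the 15 was 1404 TPM in BM-Mono, 292 in SC-Mono, and 260.2 in SC-APC. The exception was *Pcna*, at -0.29 (-0.35 to -0.22). The part of cell division in the levels of the enzyme genes was not tested.

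**Figure D5:**
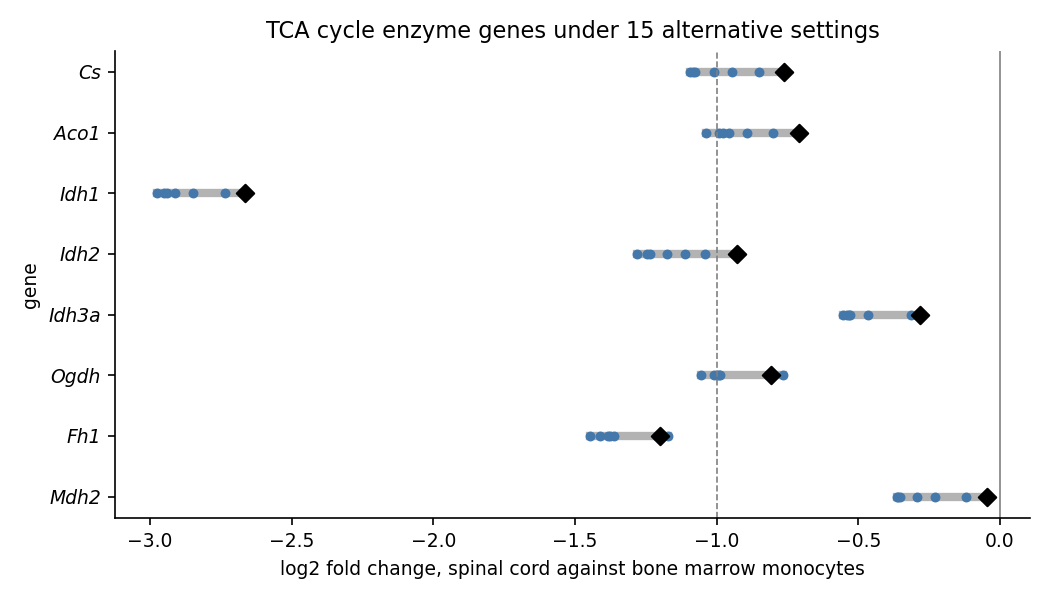
Log2 fold change of the 8 enzyme genes between SC-Mono and BM-Mono as reported (diamonds) and under 15 alternative settings (blue points, with their range in grey). The solid line is 0 and the dashed line the 2-fold bound. All 8 are below 0 in each setting, and *Idh1* (-2.98 to -2.66) and *Fh1* (-1.45 to -1.17) stay beyond -1. The settings of the TPM threshold, the bound, the assumed spread, and the plain 2-fold change cannot alter these values.

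The fall of *Fh1* is the call with the least margin. It was lost when a spread between libraries was assumed or when the bound was set at 0.001, while *Cs*, *Idh2*, *Aco1*, or *Ogdh* were called lower under settings on the TPM scale, where the median of all genes lies lower. *Idh2* was also called lower, at -1.17, when all genes of the monocyte libraries were used. The call of *Acod1* was made in all 15 settings, with log2 fold changes of 7.81 to 9.13, and that of *Idh1* was lost in 1, an assumed coefficient of variation of 0.4 between libraries.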

How the data were processed

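RNA of 3 populations, each pooled across mice, was sequenced as 1 library per population, with KAPA mRNA HyperPrep libraries. The authors estimated expression with Salmon 0.14.1 on GENCODE vM22 (mm10) and summed the transcripts of each gene. The authors deposited estimated counts without normalization, in part as fractions, and these were rounded to whole reads here. The deposited TPM values were normalized by the authors for library size and effective length. TPM was rescaled to a sum of 1000000 over the 22238 common genes, which hold 84.9%, 85.3%, and 100.0% of the deposited TPM in BM-Mono, SC-Mono, and SC-APC. Read numbers over these genes were 32115707, 26116588, and 28209327, and size factors 1.205, 0.8629, and 0.9617. The floor was 3 reads. GENCODE M21 (GRCm38) gave symbols and coordinates. It has 22022 of the common genes, and 9 of 9 members, with the same identifier and version.

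The study defines changed genes by GFold. Its definition was computed anew, with gamma posteriors of reads plus 1 and percentiles 1 and 99 of the log2 ratio beyond 2-fold. The study sets a threshold of 2 on log2 TPM. Here TPM had to be over 3, which reads that threshold as one on log2 of TPM plus 1, and a TPM over 4 was an alternative. The call compares libraries, not conditions. The calculation was tested on simulated data that had counting error only. They held no spread between libraries, so the test does not cover differences between mice or sorts. SC-Mono was compared with BM-Mono, and SC-APC with each. Named genes were all members, every called gene and the 2 most abundant of each pathway list, and the 5 genes most like *Acod1*. For cell division and the mitochondrially encoded genes, examples are given. Named without the rule, after their values were seen, were further members of the lists that bear on a pair or a range. The members and lists were chosen with earlier results of these data known. The alternatives tried changed the scaling, the pseudocount, the TPM threshold, the added reads, the bound, an assumed spread between libraries, and the genes included. The tools were scipy 1.17.1, numpy 2.4.6, pandas 2.3.3, and matplotlib 3.10.9 in Python 3.11.15. TMM factors came from edgeR 4.0.16 in R 4.3.3. A promoter of *Idh3a* was not used here, and results on 3 genes of the pathway and marker lists are not reported here.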

Additional observations from a re-analysis of the deposited data

How the results depend on the processing

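No paired analysis was possible because each population has 1 library, and no replicate could be left out. There were 15 alternatives for the comparison of the monocytes and 14 for each of the others, and no called member changed direction. The settings of the TPM threshold, the bound, the assumed spread, and the plain 2-fold change cannot change a direction. From BM-Mono to SC-Mono, 2 members were called lower. This count was 4 with TPM plus 1, 6 with TPM plus 0.1, 4 with deposited TPM plus 1, 1 and 0 with an assumed coefficient of variation between libraries of 0.2 and 0.4, and 1 with the bound at 0.001. On the TPM scales the median of all genes lies lower (-0.37 with TPM plus 1). From BM-Mono to SC-APC, 1 member was called lower, against 2 with TPM plus 0.1 and 0 with an assumed 0.4. *Mdh2*, not called, ranged from -0.14 to 0.25 there. From SC-Mono to SC-APC no member was called in any setting, and *Acod1* ranged from -0.82 to -0.56.

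Over all genes, 1386 were called higher between the monocytes, against 2623 with no TPM threshold, 918 with an assumed 0.2, and 630 with 0.4. There were 1073 called lower, against 1890 with TPM plus 1, 2137 with TPM plus 0.1, 1838 with deposited TPM plus 1, 454 with an assumed 0.2, and 225 with 0.4. From SC-Mono to SC-APC, 188 were called higher, against 351 with TPM plus 0.1, 431 with deposited TPM plus 1, 385 with no TPM threshold, 85 with an assumed 0.2, 43 with 0.4, and 326 with a plain 2-fold change. There were 165 called lower, against 320 with reads per effective length, 528 with TPM plus 1, 617 with TPM plus 0.1, 304 with deposited TPM plus 1, 292 with no TPM threshold, 35 with an assumed 0.2, 14 with 0.4, and 302 with a plain 2-fold change. From BM-Mono to SC-APC, 1426 were called higher, against 2870 with no TPM threshold and 725 with an assumed 0.4, and 1199 lower, against 2433 with TPM plus 1, 2682 with TPM plus 0.1, 503 with an assumed 0.2, and 231 with 0.4. The assumed spreads are not measured, and the 59 reads of *Acod1* in BM-Mono limit the precision of its fold change.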

Other observations

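The genes encoded in mitochondrial DNA, whose products are subunits of the respiratory chain and ATP synthase, had log2 fold changes above 0 in both steps, 13 of 13 in each. Their 13 mRNAs summed to 48794 TPM in BM-Mono, 59402 in SC-Mono, and 130292 in SC-APC. Between the monocytes 0 of 13 were called, beside 13.8% of all genes called higher, with a median log2 fold change of 0.53. From SC-Mono to SC-APC 6 of the 13 were called higher, beside 1.93% of all genes, with a median of 0.99. The largest of these were *mt-Atp6* (2.34), *mt-Co2* (2.24), and *mt-Nd3* (1.86). The estimates for these genes were not whole numbers of reads in either monocyte library but were whole in SC-APC. The same held for *mt-Co3* and *mt-Atp8*, which were not called, whereas *mt-Nd1* and *mt-Nd2*, which were called, had whole reads in all 3 libraries. *mt-Co1* lay at 9142, 13485, and 22678 TPM and *mt-Atp8* at 12863, 14012, and 23974 TPM, and neither was called between the spinal cord libraries. The monocyte values also list genes that the APC values do not, among them *Gm28661*, *Gm10925*, and *Gm28437* on chromosome 1, with 71046, 52114, and 25633 reads in SC-Mono, which are annotated as pseudogenes. Nuclear pseudogenes can share reads with mitochondrial genes, and the part of these reads in the APC values was not tested.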
